A study of Mus musculus with 6 samples.

Results

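The SLC25 genes encode the mitochondrial carriers, and their transcripts were examined in Neuro2a cells, a mouse neuroblastoma line, grown with and without D-serine. Every gene of the deposited count table whose symbol begins with Slc25a followed by a number was taken, which gave 47 genes of 24391. There were 3 control libraries, labelled vehicle, and 3 libraries of cells kept in 5 mM D-serine. Both groups received a fresh medium, named D-MEM(-SG) in the labels and supplemented with 10% serum of fetal bovine origin, and were harvested 18 h later for sequencing of poly(A) RNA with a stranded kit. No genotype differs between the groups, so D-serine was the only labelled difference. All libraries came from 1 cell line, and the labels do not say whether replicates were separate cultures, so p-values measure only the spread between these samples.

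SLC25 proteins are small carriers, most of them in the inner mitochondrial membrane, which is otherwise nearly impermeable to charged metabolites. Each is built from repeated pairs of membrane-spanning helices and exchanges or imports a particular set of solutes, such as ADP and ATP, phosphate, organic acids, amino acids, glutathione, cofactors or iron. The malate-aspartate shuttle, which brings cytosolic reducing equivalents into mitochondria, uses the oxoglutarate carrier Slc25a11 together with an aspartate-glutamate carrier, Slc25a12 or Slc25a13. In neurons Slc25a12, also called aralar, is known as the main aspartate-glutamate carrier. Serine itself is carried into mitochondria by proteins of another family, the sideroflexins.

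Total counts lay between 32518483 and 40024265 per library, and 13366 genes were expressed highly enough to be tested. D-serine replicate 1 stood apart, with a slope of expression on log2 gene length of -0.0717. The slope was 0.0058 and -0.0040 in D-serine replicates 2 and 3. In control replicates 1, 2 and 3 it was 0.0356, 0.0191 and 0.0152. All D-serine libraries thus lay below all control libraries, so the length trend cannot be told apart from the treatment. Of 12 markers of neuronal and sympathoadrenal neuroblastoma cells, all 12 were tested. Their summed level, in CPM (counts per 1000000 of the library total, scaled by trimmed mean of M values), was 1568 to 1644 CPM in control and 1680 to 1801 CPM with D-serine, without overlap. Only Tubb3 (log2 fold change 0.25, edgeR adjusted p = 0.0148) was past the threshold, or 8.33% against 9.74% of all tested genes. Tubb3 alone had 467, 487 and 514 CPM in control and 624, 552 and 572 CPM with D-serine. Of the 12 log2 fold changes, 7 were above and 5 below 0, so the sum does not describe a shift of the whole set. The markers with full separation of control and D-serine libraries were nevertheless all higher with D-serine. These 6 were Hand2, Gata2, Th, Stmn2, Elavl4 and Tubb3, and 0 were separate and lower. They made up 50% of the markers, whereas such separation in either direction was seen for 32.9% of all tested genes. The part of the summed difference in the results below was not tested. Summed markers stayed low for fibroblasts (4.61 to 6.90 CPM), endothelium (3.13 to 4.02), macrophages (1.02 to 2.20), epithelium (0.510 to 1.31) and astrocytes (0.0620 to 0.546), and Col3a1, Lum, Kdr, Tie1 and Aqp4 had no count.

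Of the 47 SLC25 genes, 38 were tested. Past an adjusted p of 0.05 in edgeR's quasi-likelihood test were 4 of them, or 10.5%, against 9.74% of all tested genes. Slc25a11, Slc25a10 and Slc25a40 rose and Slc25a12 fell. The 3 that rose made up 7.89% of tested members against 4.84% of all tested genes, and the 1 that fell 2.63% against 4.9%. Over all tested genes 647 were called higher and 655 lower, a split that was 914 to 412 with upper quartile scaling and 944 to 412 with library totals. Under each of these 2 scalings 4 members were called higher, the same 3 and Slc25a16, and Slc25a12 was called lower. The share called in the family was close to that in the whole table. In bulk RNA, fewer cells of a type and less RNA per cell cannot be told apart.

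The start regions of these 4 genes are shown because they carry the changes. Each runs from 250 bases before to 50 bases after the RefSeq transcription start on build GRCm38.p6, 5' to 3' on the gene's strand, with capitals marking CCAAT or its reverse complement.
Slc25a11, chr11:70646990-70647289, minus strand: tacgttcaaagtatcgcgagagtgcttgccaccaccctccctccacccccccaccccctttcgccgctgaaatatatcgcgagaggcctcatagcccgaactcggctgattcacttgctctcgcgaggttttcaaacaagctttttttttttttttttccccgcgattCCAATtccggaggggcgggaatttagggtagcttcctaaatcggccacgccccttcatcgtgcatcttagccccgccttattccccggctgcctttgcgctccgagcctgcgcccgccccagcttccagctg
Slc25a10, chr11:120491587-120491886, plus strand: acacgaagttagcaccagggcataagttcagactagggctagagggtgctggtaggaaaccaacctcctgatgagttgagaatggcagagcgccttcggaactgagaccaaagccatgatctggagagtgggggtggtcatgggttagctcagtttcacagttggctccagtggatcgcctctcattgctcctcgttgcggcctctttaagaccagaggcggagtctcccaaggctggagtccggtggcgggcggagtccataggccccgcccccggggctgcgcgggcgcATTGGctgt
Slc25a40, chr5:8422588-8422887, plus strand: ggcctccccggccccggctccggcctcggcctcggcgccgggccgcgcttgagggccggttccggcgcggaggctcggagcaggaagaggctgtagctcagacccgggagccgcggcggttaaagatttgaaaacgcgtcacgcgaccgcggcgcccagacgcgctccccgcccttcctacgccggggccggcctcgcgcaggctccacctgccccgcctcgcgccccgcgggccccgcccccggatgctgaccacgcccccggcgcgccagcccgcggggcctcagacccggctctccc
Slc25a12, chr2:71367706-71368005, minus strand: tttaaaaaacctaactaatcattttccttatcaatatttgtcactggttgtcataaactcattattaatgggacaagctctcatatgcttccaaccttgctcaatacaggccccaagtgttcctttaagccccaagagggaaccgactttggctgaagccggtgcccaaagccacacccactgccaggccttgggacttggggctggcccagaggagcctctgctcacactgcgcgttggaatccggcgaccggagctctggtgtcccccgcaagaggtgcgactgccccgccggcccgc
The CCAAT letters, searched on both strands, occurred once in the windows of Slc25a11 and Slc25a10 and not in those of Slc25a40 and Slc25a12. They occurred in 37.4% of all 32851 windows of that length and in 22 of the 46 windows of the family (47.8%), which covered 36 of the 47 genes. Also searched were CGCATGCG (the nuclear respiratory factor NRF1; in 1.87% of all windows), CAAGGTCA (estrogen-related receptors; 1.56%) and TGATGNAA (ATF4; 3.97%), and none of these was found in a family window. The absence says only that these letters are not in these windows. Slc25a40 had the most GC-rich window of the 4, at 79.0% with 47 CpG dinucleotides, whereas Slc25a12 had 54.3% with 12, against a median of 59.3% for family windows and 52.7% for all windows.

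Levels were compared between genes as CPM divided by the exon length in kilobases (CPM per kb), averaged over the 6 libraries. Slc25a4, the ADP/ATP carrier of heart, muscle and brain, was the most abundant at 497 CPM per kb, with a range of 468 to 523 over the libraries. Next came Slc25a39, a glutathione carrier, at 185, Slc25a3, which carries phosphate for ATP synthesis and also copper, at 180, and Slc25a5, a second ADP/ATP carrier, at 161. Slc25a4 alone made up 33.0% to 34.5% of the family's summed CPM per kb, and the 5 most abundant members made up 72.8% to 74.7%. These 5 were the carriers of ADP and ATP, phosphate, glutathione and, in Slc25a33, pyrimidine nucleotides.

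Of the tested members, 18 had a mean above 10 CPM per kb, 18 lay between 1 and 10 and 2 lay below 1. Neighbours in the order of levels were compared over all 47 members, including the 9 that were too sparse to be tested. Their library ranges overlapped in 34 of 46 cases. Slc25a4 stood clear of Slc25a39, whereas Slc25a39 and Slc25a3 overlapped, and Slc25a3 (lowest library 171) lay just above Slc25a5 (highest library 168). Slc25a33, a pyrimidine nucleotide carrier, followed at 61.5, Slc25a1, the citrate carrier, at 47.7 and Slc25a12 at 40.6.

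**Figure D1:**
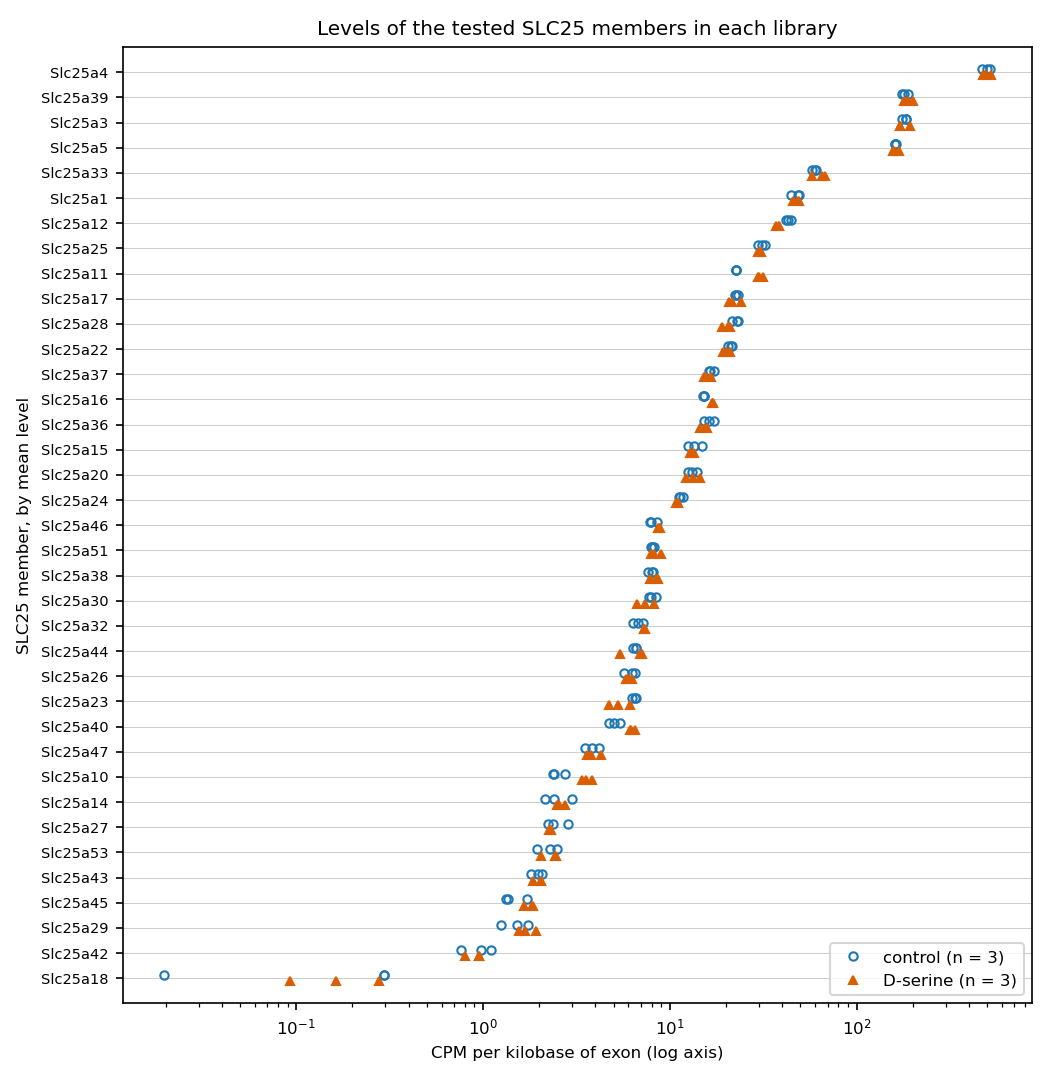
CPM per kilobase of exon (log axis) of 37 of the 38 tested SLC25 members, ordered by mean level, with a circle for each control library and a triangle for each D-serine library. Slc25a4 leads at 468 to 523, 4 members lie above 100, and Slc25a18 lies lowest, with 1 control library far below the rest.

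Closely related members differed widely in level. Slc25a4 was 3.08 times as high as Slc25a5 and Slc25a39 was 32.9 times as high as its relative Slc25a40. Slc25a33 was 3.89 times as high as Slc25a36, which also carries pyrimidine nucleotides, and Slc25a28 (mitoferrin 2) was 1.31 times as high as Slc25a37 (mitoferrin 1), both of them iron carriers. Of the aspartate-glutamate carriers, Slc25a12 had 3969 to 4832 counts per library, whereas Slc25a13, known from liver, had 2, 4 and 4 counts in control and 8, 8 and 12 with D-serine and was not tested. Of the glutamate carriers, Slc25a22 reached 20.6 CPM per kb and Slc25a18 only 0.191.

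The 9 members that were not tested had between 0 and 12 counts in any library. They were Slc25a13, Slc25a41, Slc25a54, Slc25a35, Slc25a34, Slc25a2, Slc25a21, Slc25a31 and Slc25a48. Slc25a41 is an ATP-Mg carrier, and Slc25a34, Slc25a35, Slc25a48 and Slc25a54 have little or no assigned substrate. Slc25a31, an ADP/ATP carrier known from testis, had at most 2 counts, and Slc25a2, an ornithine carrier, had 7 counts in D-serine replicate 1 and none elsewhere. Slc25a48 had no count in any library, which allows a level of up to 0.0744 to 0.0929 CPM, the value of 3 counts, for counting error only. Slc25a13 was the only one of the 9 whose groups did not overlap, at no more than 12 counts in any library. The share of other untested genes without overlap was not computed, so no change is read from this. Among the tested members, Slc25a18 also had few counts (1 to 15 per library), and the others had at least 73 in every library.

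The di- and tricarboxylate carriers held the largest changes in the family. Slc25a11 exchanges oxoglutarate for malate and is 1 of the carriers of the malate-aspartate shuttle. Slc25a11 stood at 41.9, 42.3 and 42.0 CPM in control replicates 1, 2 and 3, and at 58.6, 55.9 and 55.5 CPM in the D-serine libraries in the same order. All D-serine libraries lay above all control libraries, and the control libraries were nearly equal. Slc25a11 (chromosome 11, 70457529 to 70460541, minus strand, 1861 exonic bases) thus rose from 42.1 ± 0.194 to 56.7 ± 1.68 CPM (SD, n = 3 each), or 1.35-fold (log2 fold change 0.43, SE 0.051, edgeR adjusted p = 0.00145). It passed the threshold in all 18 alternatives run, with a highest adjusted p of 0.0179. Gene coordinates here and below are as deposited, in an assembly left unnamed there, and are not to be set beside those of the start regions above.

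Slc25a10 carries dicarboxylates such as malate and succinate in exchange for phosphate. In replicate order, the control libraries had 11.0, 9.49 and 9.59 CPM and the D-serine libraries 15.3, 13.5 and 14.2 CPM. The groups did not overlap, and control replicate 1 and D-serine replicate 1 were the highest of their groups. Slc25a10 (chromosome 11, 120353151 to 120362475, plus strand, 4000 exonic bases) rose from 10.0 ± 0.862 to 14.4 ± 0.895 CPM (SD, n = 3 each), or 1.43-fold (log2 fold change 0.52, SE 0.093, edgeR adjusted p = 0.00966). Without control replicate 2 its adjusted p was 0.0579, and it passed in the other 17 of 18 alternatives. Slc25a10 lies 3083 bases downstream of Mrpl12, a mitochondrial ribosomal protein gene on the same strand, whose log2 fold change was 0.18 (SE 0.054, edgeR adjusted p = 0.0555).

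Of the same role group, Slc25a1, which exports citrate for lipid synthesis, had a log2 fold change of 0.01 (SE 0.053, edgeR adjusted p = 0.926). Slc25a21, a carrier of oxoadipate, had 0 to 6 counts and was not tested. Slc25a10 and Slc25a11 were therefore the 2 members called of 3 tested in this group, both higher, beside 4.84% of all tested genes called higher. Their own levels differed, at 3.05 CPM per kb for Slc25a10 and 26.5 for Slc25a11.

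Slc25a40, known with Slc25a39 as a carrier for mitochondrial glutathione, rose as well. In replicate order, the control libraries had 13.4, 15.3 and 14.2 CPM and the D-serine libraries 17.6, 17.4 and 18.5 CPM, without overlap. Slc25a40 (chromosome 5, 8422838 to 8454839, plus strand, 2838 exonic bases) rose from 14.3 ± 0.995 to 17.8 ± 0.546 CPM (SD, n = 3 each), or 1.25-fold (log2 fold change 0.32, SE 0.078, edgeR adjusted p = 0.0262). This call was lost without control replicate 1 (adjusted p = 0.105), control replicate 2 (0.0621), control replicate 3 (0.0751) or D-serine replicate 3 (0.0922) in edgeR. The next gene, Dbf4, starts on the opposite strand 122 bases away and had a log2 fold change of -0.07 (SE 0.044, edgeR adjusted p = 0.295).

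Slc25a39, the much more abundant relative, had 290, 299 and 314 CPM in the control libraries (replicates 1, 2, 3) and 334, 299 and 312 CPM in the D-serine libraries. The groups overlapped, and D-serine replicate 1 was the highest library (log2 fold change 0.07, SE 0.049, edgeR adjusted p = 0.410). The log2 ratio of Slc25a39 to Slc25a40, which is free of library scaling, was 5.21, 5.06 and 5.24 in control and 5.02, 4.87 and 4.85 with D-serine. It was lower in all D-serine libraries (difference -0.26, exact two-sided permutation p = 0.1, adjusted 0.4 over 8 pairs of related members). With 3 libraries against 3, 0.1 is the smallest p that can occur. Of the other pairs, Slc25a23 and Slc25a24 are described below, 6 overlapped (exact permutation test, two-sided, p from 0.2 to 0.9), and those of Slc25a12 with Slc25a13 and of Slc25a34 with Slc25a35 were left out because of untested members. In the same role group, the acylcarnitine carrier Slc25a20 (log2 fold change 0.01) and the S-adenosylmethionine carrier Slc25a26 (-0.03) were not past the threshold, and Slc25a26 shares 124 exonic bases with Lrig1 on the opposite strand.

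Slc25a12 was the member that fell. In replicate order, the control libraries had 123, 125 and 130 CPM and the D-serine libraries 109, 113 and 112 CPM. The difference was small but the groups did not overlap. Slc25a12 (chromosome 2, 71112352 to 71205611, minus strand, 2924 exonic bases) fell from 126 ± 3.45 to 111 ± 2.27 CPM (SD, n = 3 each), to 0.881 of the control level (log2 fold change -0.18, SE 0.044, edgeR adjusted p = 0.0244). The call was lost without control replicate 1 (adjusted p = 0.0687), control replicate 2 (0.0994), control replicate 3 (0.0899) or D-serine replicate 3 (0.0754) in edgeR. Exons of the 4 genes that rose or fell overlapped no exon of another gene in the table on either strand.

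Slc25a11 and Slc25a12, which serve the same shuttle, thus lay on opposite sides of 0. At the level of CPM per kb, Slc25a12 was at 43.1 and Slc25a11 at 22.6 in control, and 38.0 and 30.5 with D-serine. The other amino acid carriers were not past the threshold. Slc25a22, which imports glutamate, had a log2 fold change of -0.07 (SE 0.052), and Slc25a15, which carries ornithine and citrulline for the urea cycle, had -0.05 (SE 0.065). Slc25a38, a glycine carrier needed for heme synthesis, had 0.07 (SE 0.082), Slc25a44, a carrier of branched-chain amino acids, had -0.0049 (SE 0.091), and Slc25a29, a carrier of basic amino acids, had 0.20 (SE 0.18). The sparse Slc25a18 had -0.18 (SE 0.69). The group of amino acid carriers had 1 of 7 tested members called (14.3%, against 9.74% of all tested genes), and its median log2 fold change was -0.05.

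**Figure D2:**
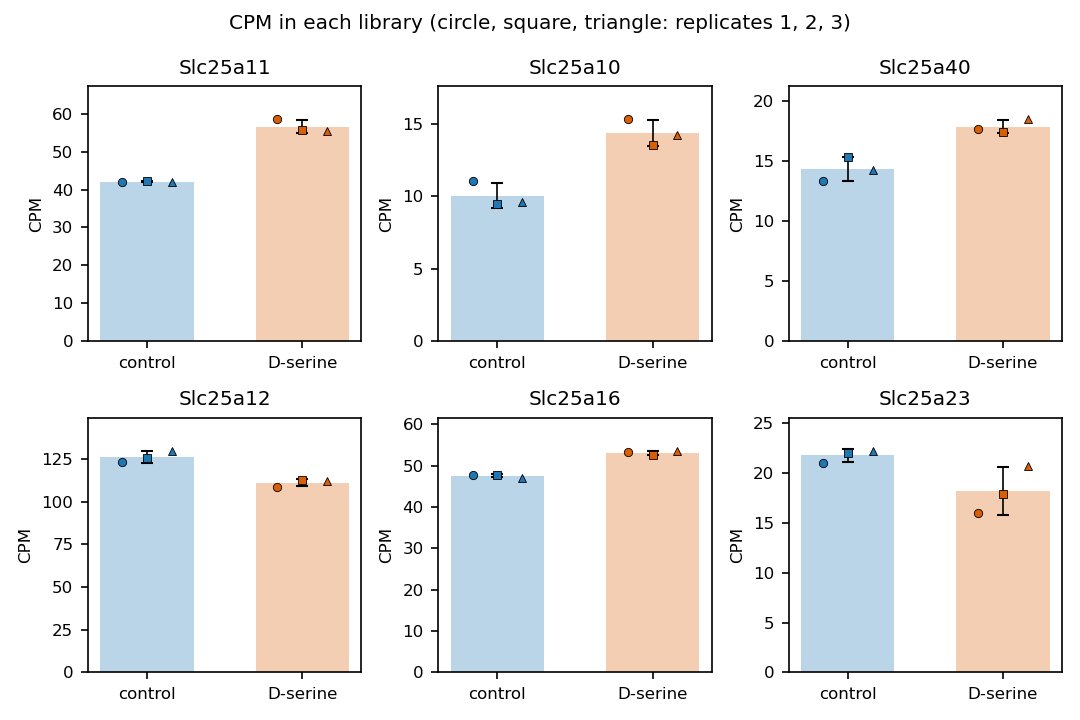
CPM from 0 in each library for Slc25a11, Slc25a10, Slc25a40, Slc25a12, Slc25a16 and Slc25a23, with bars for the mean of 3 libraries per group, error bars of 1 SD and a symbol per replicate. These are the 6 members with the smallest p, and the groups do not overlap in any of the panels. Groups did not overlap in 28.9% of tested members and 32.9% of all tested genes. Slc25a23 runs from 15.9 to 20.7 CPM with D-serine.

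Of the 5 tested carriers of adenine nucleotides and ATP-Mg, 0 were past the threshold in edgeR (9.74% of all tested genes), DESeq2 (12.2%) or limma-voom (9.43%). An unadjusted edgeR p under 0.05 was seen in 1 of the 5, beside 3769 of all 13366 tested genes. Slc25a4 had 517, 553 and 574 CPM in the control libraries (replicates 1, 2, 3) and 576, 525 and 541 CPM in the D-serine libraries. The groups overlapped throughout, with a log2 fold change of -0.0013 (SE 0.049), and Slc25a5 had 0.0038 (SE 0.042). Slc25a5 had the smallest SE of the family. These genes resemble each other and have processed copies elsewhere in the genome, and the counting of reads that map to several places is not given in the sources used here, so their values are uncertain.

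Slc25a23, a calcium-regulated carrier that exchanges ATP-Mg for phosphate, had the smallest p of this group. In replicate order, the control libraries had 21.0, 22.0 and 22.2 CPM and the D-serine libraries 15.9, 17.9 and 20.7 CPM. The groups were separate by a narrow margin, and D-serine replicate 1 was the lowest library (log2 fold change -0.26, SE 0.090, edgeR adjusted p = 0.0817). Without D-serine replicate 1 the log2 fold change was -0.17 (edgeR adjusted p = 0.175). Its relative Slc25a24 had -0.05 (SE 0.054), and the log2 ratio of Slc25a23 to Slc25a24 differed by -0.22, the groups being separate only narrowly (exact two-sided permutation p = 0.1, adjusted 0.4). Slc25a25, of the same kind, had -0.04 (SE 0.046) and shares 404 exonic bases with Naif1 on the opposite strand.

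The phosphate carrier Slc25a3 had 266, 280 and 277 CPM in the control libraries (replicates 1, 2, 3) and 294, 258 and 260 CPM in the D-serine libraries. D-serine replicate 1 was the highest of all libraries and D-serine replicates 2 and 3 the lowest (log2 fold change -0.02, SE 0.053, edgeR adjusted p = 0.835). Without D-serine replicate 1 the log2 fold change was -0.08 (edgeR adjusted p = 0.125).

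The carriers of other nucleotides and cofactors were 8, of which 4 were above and 4 below 0, and 0 were past the threshold in the same 3 tests. An unadjusted edgeR p under 0.05 was seen in 2 of the 8, beside 3769 of all 13366 tested genes. Slc25a16, a carrier linked to coenzyme A, came closest. In replicate order, the control libraries had 47.8, 47.8 and 47.2 CPM and the D-serine libraries 53.3, 52.7 and 53.6 CPM. Both groups were tight and did not overlap (log2 fold change 0.16, SE 0.049, edgeR adjusted p = 0.0544). Slc25a16 passed in 6 of 18 alternatives, with edgeR, voom and DESeq2 adjusted p-values from 0.0272 to 0.153 over all 18. Slc25a32, linked to folate and FAD, had 0.12 (SE 0.070, edgeR adjusted p = 0.305) without overlap of the groups. The nucleotide carriers Slc25a33 (0.09, SE 0.057) and Slc25a36 (-0.09, SE 0.059), the NAD carrier Slc25a51 (0.06, SE 0.061), the peroxisomal Slc25a17 (-0.04, SE 0.064) and the coenzyme A carrier Slc25a42 (-0.06, SE 0.19) overlapped between the groups.

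Both mitoferrins were lower in mean without passing the threshold. Slc25a28 had 35.6, 35.1 and 32.9 CPM in the control libraries (replicates 1, 2, 3) and 32.4, 31.3 and 29.2 CPM in the D-serine libraries. The lowest control library lay just above the highest D-serine library (log2 fold change -0.16, SE 0.063, edgeR adjusted p = 0.127). Slc25a37 overlapped between the groups (-0.07, SE 0.052, adjusted p = 0.435).

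Of the carriers that resemble uncoupling proteins, Slc25a30 had the smallest p. It had 13.2, 13.5 and 14.5 CPM in the control libraries (replicates 1, 2, 3) and 11.4, 14.1 and 12.5 CPM in the D-serine libraries. The groups overlapped (log2 fold change -0.11, SE 0.093, edgeR adjusted p = 0.453), as they did for Slc25a14 (0.04, SE 0.15) and Slc25a27 (-0.13, SE 0.12).

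Slc25a46 differs from the rest in lying in the outer mitochondrial membrane, where it takes part in membrane dynamics. It had 34.5, 34.3 and 37.3 CPM in the control libraries (replicates 1, 2, 3) and 38.9, 38.0 and 38.1 CPM in the D-serine libraries. The groups were separate, with control replicate 3 close to the D-serine libraries (log2 fold change 0.12, SE 0.057, edgeR adjusted p = 0.202). Among the 4 tested members with little or no assigned substrate, Slc25a45 had the smallest p, at 2.45, 2.51 and 3.17 CPM in the control libraries (replicates 1, 2, 3) and 3.34, 3.40 and 3.03 CPM in the D-serine libraries. Its groups overlapped (log2 fold change 0.26, SE 0.17, edgeR adjusted p = 0.343). Slc25a47 (0.01, SE 0.12), Slc25a43 (0.03, SE 0.18) and Slc25a53 (0.04, SE 0.12) were expressed at 1.96 to 3.87 CPM per kb, and each overlapped between the groups.

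**Figure D3:**
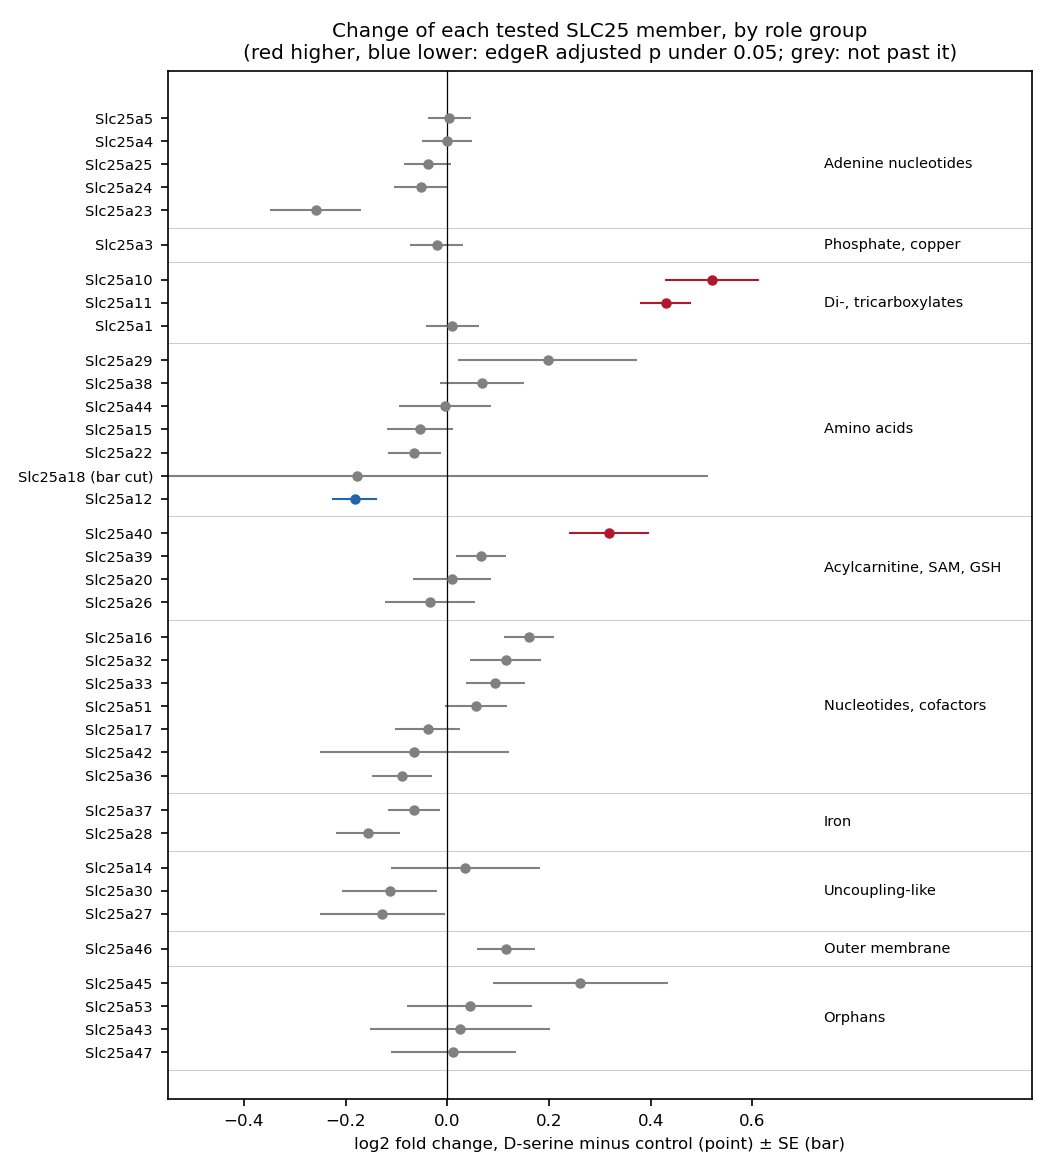
Log2 fold change (D-serine minus control, points) with its standard error (bars) of 37 of the 38 tested members, sorted by role group, in red or blue where the edgeR adjusted p was under 0.05. Slc25a10, Slc25a11 and Slc25a40 stand to the right and Slc25a12 to the left, and 23 of the 37 lie within 0.1 of 0; the bar of Slc25a18 (SE 0.69) runs past the axis.

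Across the family the changes were small and, in the fit as reported, balanced around 0. Of the 38 tested members, 19 were above and 19 below 0, with a median log2 fold change of 0.0013, against 0.0053 for all tested genes. The median absolute log2 fold change was 0.07 in the family and 0.12 over all tested genes. The groups did not overlap in 11 tested members (28.9%), 6 higher and 5 lower with D-serine, against 32.9% of all tested genes. The family's share of all counts was 0.241% to 0.251% in control and 0.245% to 0.263% with D-serine, the highest value being that of D-serine replicate 1.

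D-serine replicate 1 had relatively more reads from short genes than the other libraries. The length slopes of D-serine replicates 2 and 3 also lay below those of all control libraries. The median exonic length was 2325.5 bases in tested members and 2834.5 bases in all tested genes, and that of genes past the threshold was 2157 bases where higher and 4581 bases where lower. Within the family, Spearman's rho of the change with exonic length was 0.012 over the 38 members, which share the same 6 libraries. With each library's length trend removed, the log2 fold changes were 0.39 for Slc25a11 (edgeR adjusted p = 4.7e-05), 0.54 for Slc25a10 (0.00103), 0.31 for Slc25a40 (0.0124) and -0.19 for Slc25a12 (0.00266). The family's median was then -0.041, against 0.0040 for all tested genes. Under that setting 7 members passed, against 15.3% of all tested genes, and the added ones were Slc25a16 (0.16, edgeR adjusted p = 0.0272), Slc25a28 (-0.21, 0.0223) and Slc25a23 (-0.26, 0.0452). With D-serine replicate 1 also left out, 7 passed as well (13.8%), with Slc25a3 (-0.12, edgeR adjusted p = 0.0158) in place of Slc25a23.

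Leaving out libraries changed the count of members past the threshold. It was 2 without control replicate 1 (Slc25a10 and Slc25a11, with 0.921% of all tested genes called), 1 without control replicate 2 (Slc25a11, with 0.501%) and 2 without control replicate 3 (3.34%). Omission of D-serine replicate 3 left 2 (2.15%), and Slc25a10 and Slc25a11 were the 2 in both cases. Without D-serine replicate 1 the same 4 members passed, with 12.5% of all tested genes. Without D-serine replicate 2 there were 5, Slc25a33 being the added member (11.6%). Slc25a11 was the member that passed in all 6 of these fits. The same 4 members passed with the DESeq2 test (12.2%), limma-voom (9.43%), DESeq2 size factors (9.88%) and halved counts (10.6%). Slc25a16 joined them with upper quartile scaling (9.92%), library totals (10.1%) and a mean of at least 50 counts (11.4%), and Slc25a23 without a filter on low counts (10.6%). With the replicate number as a block, which does not pair these libraries, 2 passed (2.23%).

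**Figure D4:**
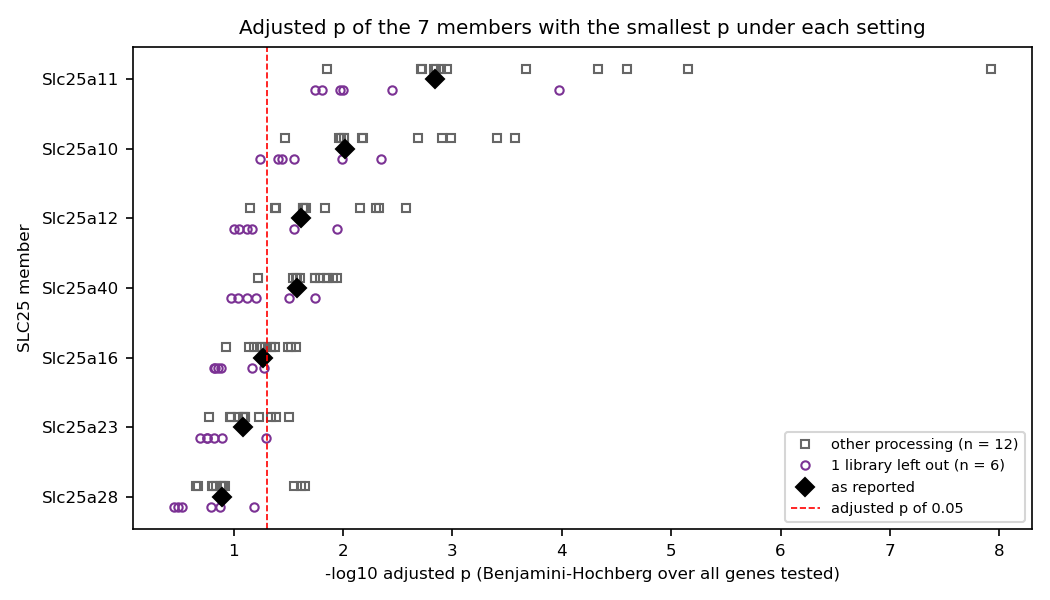
Minus log10 of the adjusted p of the 7 SLC25 members with the smallest p, as reported (diamond), in 12 other processing settings (squares) and with 1 library left out (circles); the dashed line marks 0.05. Slc25a11 stays right of the line throughout, Slc25a10 crosses it once, and Slc25a12 and Slc25a40 lie on both sides.

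Genes that work with the carriers were examined in 3 lists. Of 5 family proteins under other names, 4 were tested and 1 passed, beside 9.74% of all tested genes. This was Ucp2, an inner membrane carrier related to the uncoupling protein of brown fat, at 62.2, 65.1 and 71.1 CPM in the control libraries (replicates 1, 2, 3) and 81.9, 78.0 and 79.1 CPM in the D-serine libraries. The groups did not overlap, and Ucp2 rose from 66.1 ± 4.55 to 79.7 ± 2.02 CPM (mean ± SD of n = 3), and the edgeR adjusted p was 0.0149 at a log2 fold change of 0.27 (SE 0.056). Its call was lost without control replicate 1 (adjusted p = 0.0744), control replicate 2 (0.0739) or D-serine replicate 3 (0.0514). The outer membrane proteins Mtch1 (-0.10, SE 0.050) and Mtch2 (0.03, SE 0.051) were not past the threshold in edgeR, nor was Ucp1, which had at most 26 counts.

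The machinery that brings carriers into the inner membrane comprises the receptor Tomm70a, the pore of Tomm40, the small Timm chaperones and the insertase Timm22. All 15 of its listed genes in the table were tested. Of these, 0 passed in edgeR (9.74% of all tested genes), DESeq2 (12.2%) or limma-voom (9.43%). With the length trend removed 2 passed (15.3%), and 1 with the replicate block as well (14.2%). Upper quartile scaling (9.92%), library totals (10.1%) and omission of D-serine replicate 1 (12.5%) each gave 1. An unadjusted edgeR p under 0.05 was seen in 2 of the 15, beside 3769 of all 13366 tested genes. The median exonic length of the 15 was 1117 bases, against 2834.5 bases in all tested genes. Their log2 fold changes ran from -0.11 to 0.17 around a median of 0.09, against 0.0053 for all tested genes. The largest was that of Timm22 (0.17, SE 0.054, edgeR adjusted p = 0.0689). In the list of the pyruvate carrier and the enzymes of the NADH shuttles, 1 of 9 tested genes passed (11.1%, against 9.74% of all tested genes). Gpd1, the cytosolic enzyme of the glycerol phosphate shuttle, had 9.05, 10.4 and 8.73 CPM in the control libraries (replicates 1, 2, 3) and 7.52, 7.59 and 6.08 CPM in the D-serine libraries. The groups did not overlap, and Gpd1 fell from 9.38 ± 0.874 to 7.06 ± 0.851 CPM (mean ± SD of n = 3), and the edgeR adjusted p was 0.0442 at a log2 fold change of -0.41 (SE 0.12).

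Gpd1 was not past the threshold without control replicate 1 (edgeR adjusted p = 0.102), control replicate 2 (0.181), control replicate 3 (0.0696) or D-serine replicate 3 (0.152), nor with upper quartile scaling (0.0570) or library totals (0.0564). In the fit as reported, the enzymes that complete the malate-aspartate shuttle were not past the threshold. Mdh1, the cytosolic malate dehydrogenase, had a log2 fold change of 0.14 (SE 0.048, edgeR adjusted p = 0.0787), and its mitochondrial form Mdh2 had -0.05 (SE 0.049). The aminotransferases Got1 and Got2 had -0.06 (SE 0.040, edgeR adjusted p = 0.323) and -0.09 (SE 0.037, 0.125). The pyruvate carrier subunits Mpc1 and Mpc2 had 0.13 (SE 0.12) and 0.16 (SE 0.068). Of the 9 tested genes of this list, 4 did not overlap between the groups (44.4%, against 32.9% of all tested genes). They were Gpd1, Got1 and Got2, which were lower, and Mdh1, which was higher. With the length trend removed, 4 of the 9 passed (15.3% of all tested genes).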

How the data were processed

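Raw counts per gene were deposited as 1 table, laid out as featureCounts writes it per the file headers. The submitters' processing notes name Trim Galore, HISAT2, featureCounts, DESeq2 and the builds GRCm38 and mm10, without versions. The gene starts of 0 of the 47 members matched a RefSeq table of GRCm38.p6 (the start of Slc25a40 matched a transcript start only), so coordinates are given as deposited, from a build the table does not name. The deposited table also holds the exonic length of each gene in bases. Of counts from 1 to 10, between 69.4% and 72.2% were even, against 49.7% to 51.3% of counts above 20, as when both mates of a pair are counted, so counts may exceed independent molecules. Strand and multi-mapping settings are not given in the sources used here.

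Counts were tested with edgeR 4.0.16 in R 4.3.3 (filterByExpr, trimmed mean of M values, quasi-likelihood F test, Benjamini-Hochberg over 13366 genes, two-sided, threshold 0.05), after tests on simulated data. The standard error is the log2 fold change divided by the square root of F. CPM per kb divides CPM by the exonic length. Exon overlap was computed with bedtools 2.31.1. Alternatives were DESeq2 1.42.0, limma 3.58.1 (voom), other scalings and filters, the replicate number as a block, removal of length trends (a natural spline with 5 degrees of freedom, its mean kept) and omission of each library. Added after seeing the data were halved counts, and length trends removed without D-serine replicate 1. The members and lists were chosen with earlier results of these data known. Values per library were given for members past the threshold, the member with the smallest p of each role group and the 3 with the highest CPM per kb, and for list genes past the threshold. Promoter windows were matched by symbol for 36 of 47 members, and the searched motifs were chosen from general knowledge. Protein sequences were not used here, and 1 tested member is counted but not reported by itself.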

Additional observations from a re-analysis of the deposited data

How the results depend on the processing

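The number of SLC25 members past the threshold was 4 as reported. The replicate block gave 2 (2.23% of all genes tested), with 0 lower members, and removal of the length trend gave 7 (15.3%), with 3 lower, both alone and with the block (14.2%) and without D-serine replicate 1 (13.8%). Without a filter on low counts 2 members were lower. Leaving out 1 library gave from 1 to 5 members, from 1 to 4 higher and from 0 to 1 lower. The related lists held 4, 15 and 9 tested genes. Of these, 2 were past the threshold as reported (9.74% of all genes tested), 0 with the replicate block (2.23%) and 8 with the length trend removed (15.3%). There were 6 with that trend removed and the block (14.2%), and 7 with it removed without D-serine replicate 1 (13.8%). Leaving out 1 library gave from 0 to 4 (0.501% to 12.5% of all genes tested). Over all genes tested, 1302 passed as reported, 298 with the block, 2043 with the length trend removed and from 68 to 1699 with 1 library left out, the lowest without control replicate 2; without control replicate 1 there were 125, without control replicate 3 there were 453 and without D-serine replicate 3 there were 291. The family's median log2 fold change was 0.031 with upper quartile scaling and 0.031 with library totals, -0.041 with the length trend removed, -0.041 with that and the replicate block, -0.034 with it removed without D-serine replicate 1, and from -0.023 to 0.0085 with 1 library left out. Over all genes tested the median was 0.0351 with upper quartile scaling, 0.0345 with library totals and 0.0040 with the length trend removed. The difference in the log2 ratio of Slc25a4 to Slc25a5 was -0.0042 as reported, and ran from -0.042 to 0.025 with 1 library left out. That of Slc25a18 to Slc25a22, 0.50 as reported, ran from -0.81 (without control replicate 3) to 1.17 (without control replicate 2). Slc25a18 had 13, 15 and 1 counts in control replicates 1, 2 and 3, where this log2 ratio was -6.18, -6.12 and -10.1. No change is read from a ratio that rests on so few counts. The cause was not tested. Same-numbered libraries did not deviate together (correlations across genes of -0.0687, 0.0197 and -0.0187), so the numbers do not pair them. DESeq2, voom and halved counts called the same 4 members, with 12.2%, 9.43% and 10.6% of genes called. The low counts of 9 members limit what could be tested.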
